A study of Rattus norvegicus with 6 samples.

Results

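The genes described here encode the enzymes of the urea cycle and of amino acid breakdown, 44 in all, chosen by name and read at the brightest probe of each gene on an Illumina rat bead array. Probes carried 40 of the 44 names. Pcbd1, Gstz1, Prodh and Hibadh had no probe under their symbol in the annotation used here, and Shmt1 was too dim to be tested. That left 39 genes of the 9193 named genes tested.

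RNA came from non-tumor liver of 6 male Wistar rats, 1 array per rat. All 6 had received diethylnitrosamine (DEN), a liver carcinogen that hepatocytes activate, by weekly intraperitoneal injection at 50 mg/kg for 18 weeks, and were killed at week 19 after a washout week without DEN. In weeks 13 to 18, 3 rats (EGCG_228, EGCG_234 and EGCG_236) had 0.02% epigallocatechin gallate (EGCG), a green tea catechin, in their drinking water on 5 days a week, and 3 rats (water_224, water_227 and water_237) had water. No rat without DEN is among these samples, so both groups are injured livers, and the ages of the rats are not given in the labels.

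The urea cycle turns ammonia, which amino acid breakdown releases, into urea for excretion. It runs in hepatocytes, partly in the mitochondrial matrix and partly in the cytosol, and is strongest around the portal tract. The amino acids are taken apart by transaminases and dehydrogenases that pass their nitrogen to glutamate and aspartate, and by separate pathways for histidine, tryptophan, tyrosine, the branched-chain amino acids, glycine and methionine. Their probes were bright in these livers: of the 39 tested, 23 lay in the top 10% of named genes by mean intensity and 34 in the top 25%.

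Values below are log2 normalized intensities, and differences are EGCG minus water on that log2 scale with their standard error (SE). Levels of different genes are not comparable, since each has its own probe. A gene passed if its limma p, Benjamini-Hochberg adjusted over 13514 probes, was under 0.05. In bulk tissue, fewer cells of a type and less RNA per cell cannot be told apart.

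The non-normalized array means ran from 382 to 531 and the medians from 112 to 120. Hepatocyte markers were bright on all arrays: Alb averaged 15.04 ± 0.25 in EGCG livers and 14.98 ± 0.29 in water livers, and Ahsg 15.16 ± 0.15 in EGCG livers and 15.07 ± 0.15 in water livers (SD, n = 3 each). One array stood apart for the genes described here, though not for these alone. EGCG_236 was the lowest of the 3 EGCG rats for 35 of the 39 genes (89.7%), whereas it was the lowest for 38.3% of all named genes. Among hepatocyte markers, EGCG_236 was also the lowest EGCG rat for Ttr, Fgb, Serpina1, Ahsg, Rbp4, Hp and Asgr1. For Alb, Tf, Apoa2 and Tat, EGCG_236 was the highest. The differences of all 39 genes with and without it are in the plot of differences, and those it moved most are given both ways in the text.

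None of the 39 genes passed with all 6 rats in limma's test, where 0.566% of named genes did. The smallest change that passed among all named genes was 0.62 in size. The median SE was 0.20 for the 39 genes, against 0.14 over all named genes, so a gene that did not pass cannot be called unchanged. At an unadjusted p under 0.05 there were 6 of 39 (15.4%): Bcat2, Glud1, Cth, Got1, Hibch and Ivd; over all named genes the share was 11.6%. Of the 6, Glud1, Cth and Ivd were higher (5.28% of all named genes) and Bcat2, Got1 and Hibch lower (6.31% of all named genes). The difference was above 0 for 31 of 39 genes (79.5%), against 51.1% of all named genes, and the median difference was 0.20, against 0.0037 over all named genes. The median was 0.38 without EGCG_236, 0.11 without EGCG_228, 0.11 without EGCG_234 and 0.10 without water_237. The groups did not overlap for 7 of 39 genes (17.9%), against 16.5% of all named genes: Glud1, Hpd, Bckdhb and Ivd lay higher in every EGCG rat (8.25% of all named genes) and Bcat2, Got1 and Hibch lower (8.23% of all named genes). With the arrays scaled to a common median in place of quantile normalization, Bcat2 was the 1 gene of the 39 left without overlap (2.56%), where 12.2% of all named genes were.

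**Figure D1:**
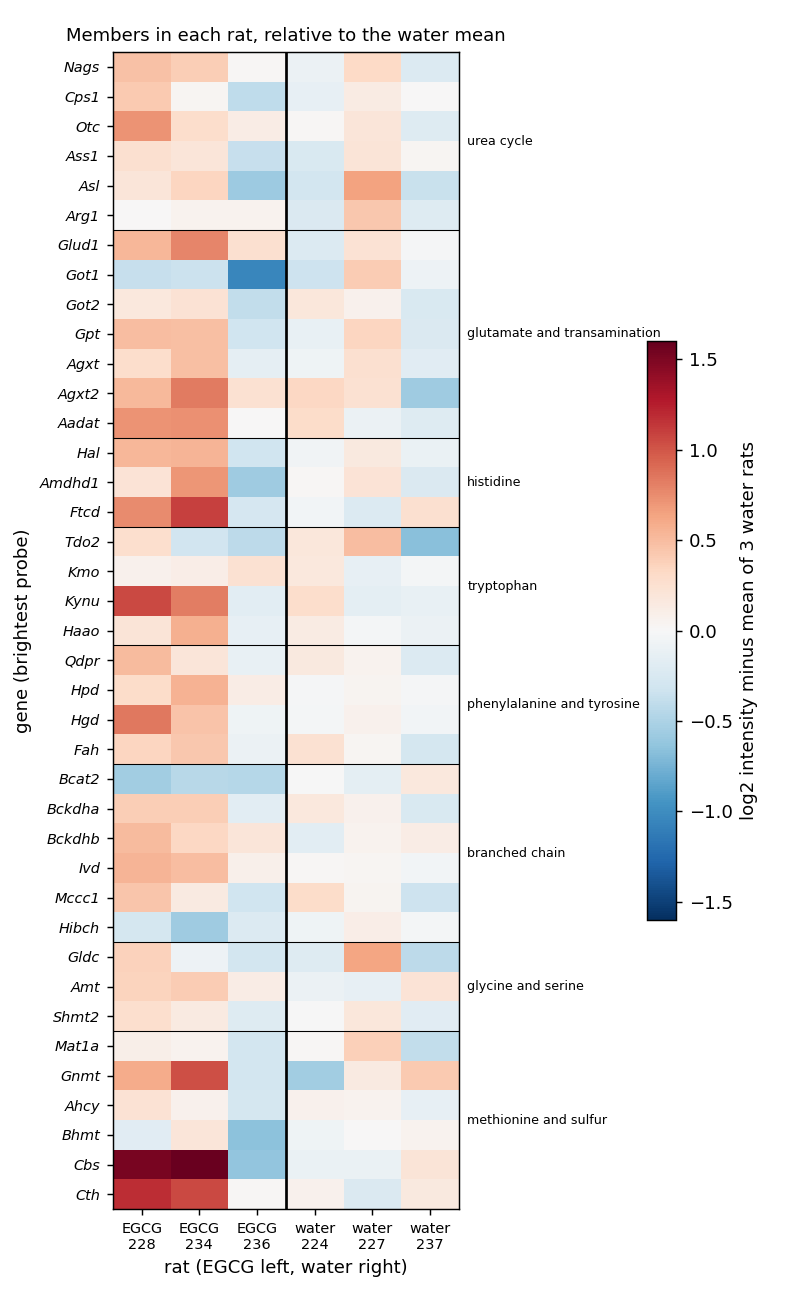
Heat map of the 39 tested genes (rows, grouped by pathway) in the 6 rats (columns, EGCG left of the line, water right); colour is the log2 normalized intensity minus the mean of the 3 water rats. EGCG_228 and EGCG_234 are red for most genes, with Cbs and Cth the deepest, while EGCG_236 is pale or blue for most.

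Within the EGCG group, the rats fell into unlike profiles. Set against the water mean, the 39 genes had a median deviation of 0.37 (EGCG_228), 0.40 (EGCG_234) and -0.21 (EGCG_236), against -0.022, 0.073 and -0.12 in water_224, water_227 and water_237. EGCG_236 thus lay below all 3 water rats by this measure, and the other EGCG rats above them. The SD among EGCG rats exceeded that among water rats for 29 of 39 genes (74.4%), against 53.2% of all named genes. Among the water rats, water_237 was the lowest for 22 of 39 genes (56.4%), against 33.4% of all named genes.

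Without EGCG_236, 4 of 39 genes passed (limma, adjusted p under 0.05), all higher in the remaining 2 EGCG rats than in the 3 water rats: Cbs, Cth, Ftcd and Kynu. In the same fit 1.76% of all named genes passed, and 0.968% passed as higher. EGCG_236 was singled out by its low values in these same genes, so leaving it out was bound to raise their differences. The fits without it, here and below, are description and no independent support. The groups then did not overlap for 26 of 39 genes (66.7%), against 34.2% of all named genes, and 23 of the 26 were higher with EGCG, a direction that 18% of all named genes had without overlap. Leaving out any other rat gave 0 calls among the 39 and 7 to 10 genes without overlap (17.9% to 25.6%), where 22.3% to 26.5% of all named genes had none, so those counts were at or below the share of all named genes.

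Of the genes described, Cbs and Cth had the widest differences. They encode the consecutive enzymes of transsulfuration, which turns homocysteine into cysteine: cystathionine beta-synthase joins homocysteine to serine, and cystathionine gamma-lyase splits the product. The letters before their transcription starts are shown because these genes had the widest differences. Both runs are the 250 bases upstream of the gene start as RefSeq places it on build GRCr8, written 5′ to 3′ on the gene's strand, with CCAAT and GGGCGG on either strand in capitals.
Cbs, chr20:9733926-9734175, minus strand: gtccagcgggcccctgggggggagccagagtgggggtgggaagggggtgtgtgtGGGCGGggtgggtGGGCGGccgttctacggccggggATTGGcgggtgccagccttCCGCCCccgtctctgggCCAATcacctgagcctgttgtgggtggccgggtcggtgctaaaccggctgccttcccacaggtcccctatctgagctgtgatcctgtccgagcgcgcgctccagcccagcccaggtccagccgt
Cth, chr2:249661067-249661316, minus strand: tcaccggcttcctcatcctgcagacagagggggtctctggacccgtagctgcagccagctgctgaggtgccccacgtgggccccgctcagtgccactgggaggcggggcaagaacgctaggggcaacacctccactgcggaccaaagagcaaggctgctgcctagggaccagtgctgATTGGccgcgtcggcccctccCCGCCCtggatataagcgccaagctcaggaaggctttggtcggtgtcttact
The Cbs window held CCAAT 2 times and GGGCGG 3 times, and the Cth window held each 1 time. TATAA, also searched on both strands and not overlapping the others, lay 42 to 38 bases before the Cth start and was not among the letters of the Cbs window. Over 27457 rat promoter windows of this length, 34.3% held CCAAT, 32.4% GGGCGG and 24.1% TATAA. Among the 34 tested genes with a window in the table, 16 held CCAAT (47.1%), 16 held GGGCGG (47.1%) and 8 held TATAA (23.5%). These matches describe letters only.

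In the methionine and sulfur group, 0 of 6 genes passed with all rats, and the median difference was 0.23. Cbs had 10.02, 10.09 and 7.88 in EGCG_228, EGCG_234 and EGCG_236, against 8.40, 8.40 and 8.72 in water_224, water_227 and water_237. EGCG_228 and EGCG_234 were far above every water rat and EGCG_236 below every one. The difference was 0.82 (SE 0.46, limma adjusted p = 0.611), and without EGCG_236 it was 1.55 (SE 0.15, adjusted p = 0.00515). Cth had 12.47, 12.34 and 11.30 in the EGCG rats in the same order, against 11.36, 11.06 and 11.44 in the water rats. Here EGCG_236 lay within the water range. The difference was 0.75 (SE 0.28, limma adjusted p = 0.361), and 1.12 (SE 0.16, adjusted p = 0.0138) without EGCG_236.

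Gnmt, glycine N-methyltransferase, which consumes surplus S-adenosylmethionine, had 12.12, 12.56 and 11.23 in the EGCG rats, against 10.96, 11.66 and 11.94 in the water rats. The groups overlapped, with water_224 lowest, and the difference was 0.45 (SE 0.33, limma adjusted p = 0.715), or 0.81 without EGCG_236 (adjusted p = 0.195). The other genes of the methionine cycle differed less. Mat1a, the liver enzyme that makes S-adenosylmethionine, differed by -0.047 (SE 0.21), and Ahcy, which splits S-adenosylhomocysteine, by 0.0094 (SE 0.17). Without EGCG_236 these were 0.074 and 0.15. Bhmt, which returns homocysteine to methionine with betaine, had 12.82, 13.19 and 12.35 in the EGCG rats against 12.94, 13.01 and 13.06 in the water rats. Its difference was -0.21 (SE 0.21, limma adjusted p = 0.805), and EGCG_236 alone lay far below the water rats, the difference without it being 0.0056.

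**Figure D2:**
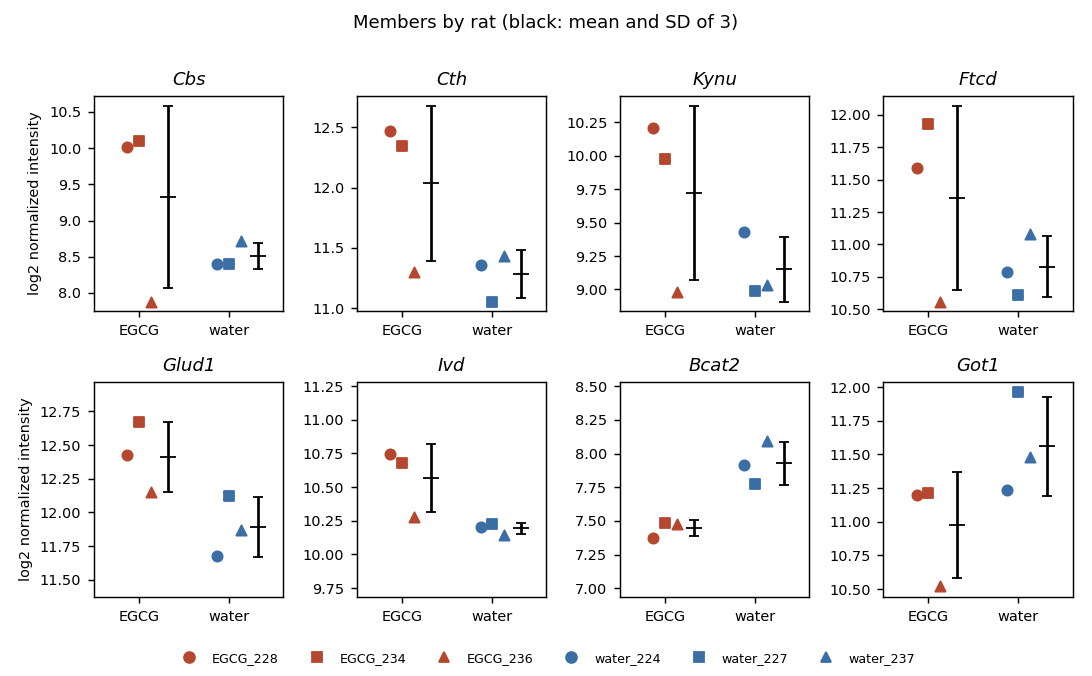
Log2 normalized intensity of 8 genes in each rat (EGCG left, water right in each panel; marker shapes are rats, black bars the mean and SD of 3 rats). For Cbs, Cth, Kynu and Ftcd, EGCG_236 (red triangle) lies with the water rats or below them; Glud1 and Ivd are higher in every EGCG rat, and Bcat2 and Got1 lower.

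None of the 6 urea cycle enzymes passed and none had groups apart. The median of their differences was 0.033 with all rats and 0.25 without EGCG_236. In that fit none passed either, while every remaining EGCG rat lay above every water rat for Nags and Otc. Nags, whose product N-acetylglutamate switches on the cycle's entry enzyme, had 9.58, 9.50 and 9.12 in EGCG_228, EGCG_234 and EGCG_236, against 9.01, 9.42 and 8.88 in water_224, water_227 and water_237. Its difference was 0.30 (SE 0.19, limma adjusted p = 0.66), and 0.43 without EGCG_236 (adjusted p = 0.306). Cps1, the entry enzyme, which makes carbamoyl phosphate from ammonia and bicarbonate, had 12.56, 12.17 and 11.73 in the EGCG rats, against 12.01, 12.26 and 12.14 in the water rats. The EGCG rats spanned the whole water range, with EGCG_228 above it and EGCG_236 below it, and the difference was 0.014 (SE 0.21, limma adjusted p = 0.993), or 0.22 without EGCG_236 (adjusted p = 0.59). The mean of the EGCG livers was 12.15 ± 0.41 and that of the water livers 12.14 ± 0.13 (SD, n = 3 each).

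Otc, which joins carbamoyl phosphate to ornithine, had 12.64, 12.20 and 12.04 in the EGCG rats, against 11.94, 12.11 and 11.71 in the water rats. Of the cycle's enzymes it had the widest difference, 0.37 (SE 0.19, limma adjusted p = 0.562), with EGCG_236 inside the water range. Without that rat it was 0.50 (limma adjusted p = 0.238). Nags, Cps1 and Otc are the mitochondrial steps. In the cytosol, Ass1, which links citrulline to aspartate, had 13.53, 13.47 and 12.91 in the EGCG rats, against 13.03, 13.49 and 13.31 in the water rats. EGCG_236 was the lowest of the 6 rats, and the difference was 0.027 (SE 0.20, limma adjusted p = 0.982), or 0.22 without it (adjusted p = 0.57).

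Asl, which splits argininosuccinate into arginine and fumarate, had 10.45, 10.59 and 9.67 in the EGCG rats, against 9.96, 10.90 and 9.90 in the water rats. Here water_227 was the highest and EGCG_236 the lowest, and the difference was -0.015 (SE 0.30, limma adjusted p = 0.996), or 0.27 without EGCG_236 (adjusted p = 0.726). Arg1, the arginase that releases urea, had 13.76, 13.81 and 13.81 in the EGCG rats, against 13.52, 14.19 and 13.55 in the water rats. Of the 6 enzymes it was the 1 with close values in all 3 EGCG rats (SD 0.028), and the difference was 0.039 (SE 0.19, limma adjusted p = 0.972), or 0.031 without EGCG_236.

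**Figure D3:**
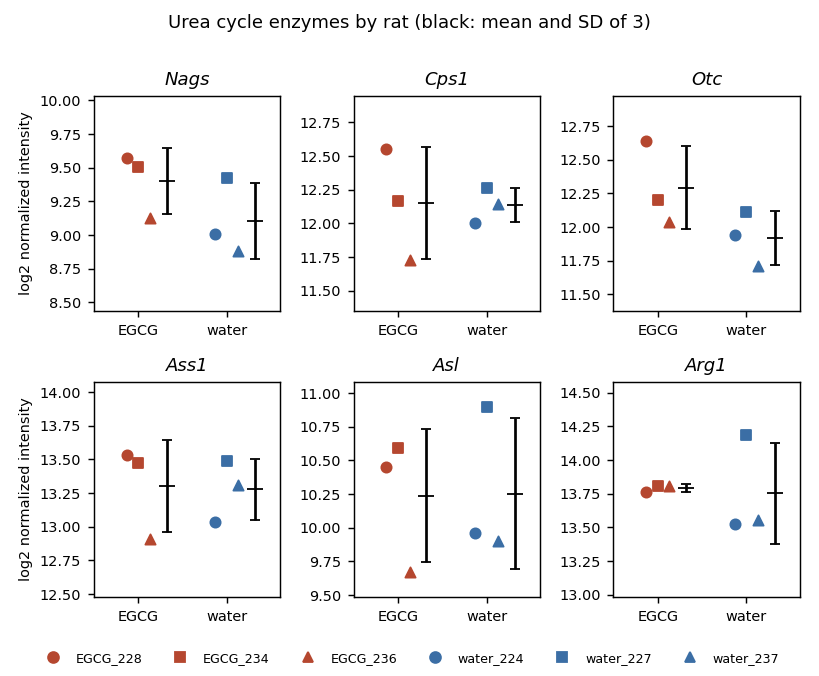
Log2 normalized intensity of the 6 urea cycle enzymes in each rat (EGCG left, water right in each panel; marker shapes are rats, black bars the mean and SD of 3 rats). The groups overlap for all 6 enzymes; EGCG_236 is the lowest of the 6 rats for Cps1, Ass1 and Asl, and Arg1 is nearly equal in the EGCG rats.

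The enzymes that move nitrogen through glutamate and aspartate differed in direction. Glud1, glutamate dehydrogenase, which frees ammonia from glutamate in mitochondria, had 12.43, 12.67 and 12.15 in the EGCG rats, against 11.68, 12.12 and 11.87 in the water rats. Every EGCG rat lay above every water rat, EGCG_236 narrowly so, and the difference was 0.52 (SE 0.19, limma adjusted p = 0.339). Got1, the cytosolic aspartate aminotransferase, had 11.20, 11.21 and 10.52 in the EGCG rats, against 11.23, 11.96 and 11.48 in the water rats. The groups lay apart by a narrow gap between EGCG_234 and water_224. The difference was -0.58 (SE 0.24, limma adjusted p = 0.424), and -0.36 without EGCG_236. Its mitochondrial counterpart Got2 differed by 0.0026 (SE 0.20).

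Aadat, a mitochondrial aminotransferase of aminoadipate and kynurenine, had 10.72, 10.74 and 10.01 in the EGCG rats, against 10.30, 9.91 and 9.80 in the water rats. EGCG_236 fell inside the water range, and the difference was 0.49 (SE 0.22, limma adjusted p = 0.497). Agxt2 and Agxt, which transfer the amino group of alanine to glyoxylate, differed by 0.54 (SE 0.25) and 0.20 (SE 0.18), and Gpt, alanine aminotransferase, by 0.22 (SE 0.24). Of the 7 genes in this group, 0 passed, and 6 had a difference above 0 (85.7%, against 51.1% of all named genes). Without EGCG_236 the differences were 0.66 for Glud1, 0.73 for Aadat, 0.68 for Agxt2, 0.38 for Agxt, 0.48 for Gpt and 0.20 for Got2, and none passed.

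The 3 histidine enzymes shared a rat order, highest in EGCG_234 and lowest in EGCG_236. Hal, histidase, which removes ammonia from histidine, had 8.37, 8.38 and 7.51 in the EGCG rats, against 7.78, 7.99 and 7.72 in the water rats. Amdhd1, the imidazolonepropionase further down the path, had 11.29, 11.77 and 10.50 in the EGCG rats, against 11.09, 11.28 and 10.84 in the water rats. Ftcd, which hands the one-carbon group of histidine to folate, had 11.59, 11.93 and 10.56 in the EGCG rats, against 10.79, 10.61 and 11.08 in the water rats. For all 3, EGCG_236 was the lowest of the 6 rats and the other EGCG rats were the highest. The differences were 0.25 (SE 0.22) for Hal, 0.12 (SE 0.28) for Amdhd1 and 0.53 (SE 0.30) for Ftcd, with limma adjusted p from 0.611 to 0.937. Without EGCG_236 that of Ftcd was 0.93 (SE 0.18, adjusted p = 0.0429), and it passed. Those of Hal and Amdhd1 were then 0.54 (adjusted p = 0.10) and 0.46 (adjusted p = 0.31).

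Along the kynurenine path of tryptophan, Kynu showed the widest difference. Kynu, kynureninase, had 10.21, 9.98 and 8.98 in the EGCG rats, against 9.43, 8.99 and 9.04 in the water rats. EGCG_236 was just below the lowest water rat, and the difference was 0.57 (SE 0.28, limma adjusted p = 0.532), or 0.94 (SE 0.17, adjusted p = 0.0377) without EGCG_236. Haao, the dioxygenase after it, had 9.75, 10.12 and 9.42 in the EGCG rats, against 9.68, 9.52 and 9.45 in the water rats, and its difference was 0.21 (SE 0.19, limma adjusted p = 0.787). Kmo, kynurenine monooxygenase, had 10.02, 10.06 and 10.20 in the EGCG rats, against 10.11, 9.82 and 9.92 in the water rats. Like Hibch, and unlike most of the 39, it was highest in EGCG_236 among the EGCG rats, and its difference was 0.14 (SE 0.15, limma adjusted p = 0.83). Tdo2, tryptophan dioxygenase, which opens the path and is induced by glucocorticoids, differed by -0.15 (SE 0.28), with water_227 the highest rat (13.47) and water_237 the lowest (12.32). Without EGCG_236 the differences of Haao, Kmo and Tdo2 were 0.38, 0.093 and -0.020.

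In the phenylalanine and tyrosine group all 4 tested genes had a difference above 0, and none passed. This did not hold for all of tyrosine breakdown. Tat, tyrosine aminotransferase, which acts before Hpd, was listed with the other pathway genes described below. It was lower in every EGCG rat, with a difference of -1.17 (SE 0.33). Hpd, the hydroxyphenylpyruvate dioxygenase, had 13.41, 13.67 and 13.23 in the EGCG rats, against 13.10, 13.16 and 13.10 in the water rats. The 3 water rats were nearly equal and every EGCG rat lay above them, with a difference of 0.32 (SE 0.16, limma adjusted p = 0.542). Hgd, the homogentisate dioxygenase that follows, had 12.49, 12.10 and 11.57 in the EGCG rats, against 11.61, 11.72 and 11.60 in the water rats. EGCG_236 was just below the water rats, and the difference was 0.41 (SE 0.22, limma adjusted p = 0.575). Fah, the last enzyme of the path, had 10.86, 10.95 and 10.42 in the EGCG rats, against 10.76, 10.55 and 10.24 in the water rats. Its difference was 0.23 (SE 0.20, limma adjusted p = 0.776), and that of Qdpr, which regenerates the biopterin cofactor of phenylalanine hydroxylase, 0.19 (SE 0.19). Without EGCG_236 they were 0.42 for Hpd, 0.65 for Hgd, 0.39 for Fah and 0.35 for Qdpr, and none passed.

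Of the 6 branched-chain genes tested, 4 had groups without overlap, in both directions, where 16.5% of all named genes were without overlap. With median scaling Bcat2 was the 1 gene of these still apart. None of the 6 passed. Bcat2, the mitochondrial aminotransferase of leucine, isoleucine and valine, which is a minor transcript of hepatocytes and is used more by other tissues, had 7.37, 7.49 and 7.48 in the EGCG rats, against 7.92, 7.77 and 8.09 in the water rats. The EGCG rats were nearly equal and all below the water rats. The difference was -0.48 (SE 0.13, limma adjusted p = 0.183), the lowest adjusted p of the 39 genes. Hibch, a hydrolase of valine breakdown, had 10.27, 9.98 and 10.33 in the EGCG rats, against 10.49, 10.65 and 10.52 in the water rats. These also lay apart, with a difference of -0.36 (SE 0.16, limma adjusted p = 0.479).

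Ivd, isovaleryl-CoA dehydrogenase of leucine breakdown, had 10.74, 10.68 and 10.28 in the EGCG rats, against 10.21, 10.23 and 10.15 in the water rats. It was higher in every EGCG rat, EGCG_236 by a small margin, with a difference of 0.37 (SE 0.17, limma adjusted p = 0.488). Bckdhb and Bckdha encode the E1 subunits of the branched-chain ketoacid dehydrogenase, the committed step. Bckdhb differed by 0.34 (SE 0.16), with every EGCG rat above every water rat, and Bckdha by 0.20 (SE 0.19), with overlap. Mccc1, the biotin-bearing subunit of methylcrotonyl-CoA carboxylase, differed by 0.089 (SE 0.22) at its brighter probe, and its other probe was too dim to be tested. Without EGCG_236 the differences were 0.52 for Ivd, 0.41 for Bckdhb, 0.39 for Bckdha, 0.29 for Mccc1, -0.50 for Bcat2 and -0.43 for Hibch, and none passed.

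In the glycine and serine group none of 3 tested genes passed. Amt, the aminomethyltransferase of the mitochondrial glycine cleavage system, had 9.62, 9.67 and 9.39 in the EGCG rats, against 9.18, 9.13 and 9.49 in the water rats. Water_237 was above EGCG_236, and the difference was 0.29 (SE 0.16, limma adjusted p = 0.601). Shmt2, the mitochondrial serine hydroxymethyltransferase, had 9.04, 8.93 and 8.57 in the EGCG rats, against 8.77, 8.96 and 8.60 in the water rats, a difference of 0.07 (SE 0.17, limma adjusted p = 0.937). Gldc, the glycine decarboxylase of the same system, had 8.17, 7.71 and 7.50 in the EGCG rats, against 7.58, 8.42 and 7.37 in the water rats. The mean was 7.79 in each group, the water rats having the wider spread (SD 0.34 with EGCG, 0.56 with water). Without EGCG_236 the differences were 0.38 for Amt, 0.21 for Shmt2 and 0.14 for Gldc. Shmt1, the cytosolic form, lay at 6.33, 6.44 and 6.12 in the EGCG rats and at 6.33, 6.40 and 6.28 in the water rats, on average below the filter of 6.39.

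By compartment, the 15 mitochondrial enzymes had a median difference of 0.20, with 12 of 15 above 0, and the 21 cytosolic enzymes a median of 0.21, with 16 of 21 above 0. That grouping was made after the values were seen. None passed in either compartment, and over all named genes 51.1% had a difference above 0.

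**Figure D4:**
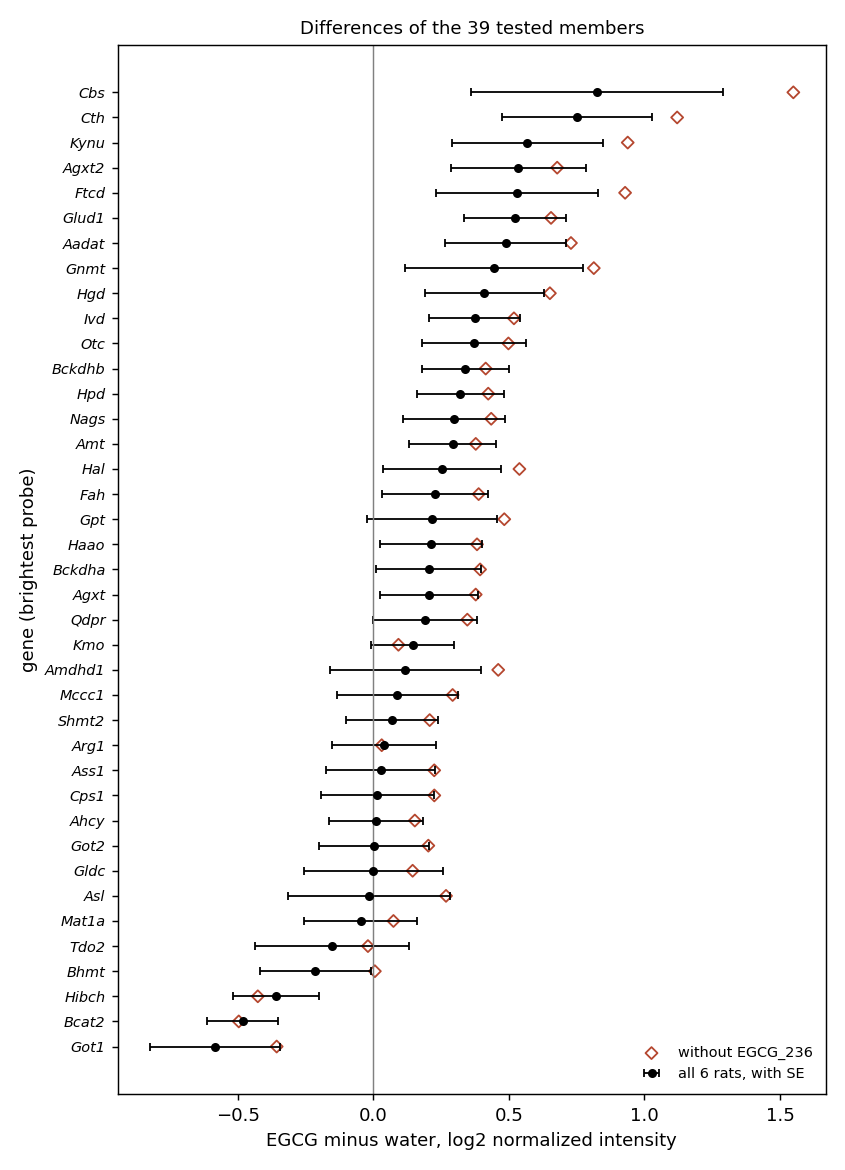
Differences, EGCG minus water in log2 normalized intensity, of the 39 tested genes in order of size. Black points are the fit with all 6 rats and bars its SE; open red diamonds are the fit without EGCG_236. The diamonds of Cbs, Cth, Kynu and Ftcd lie farthest right, from 0.93 to 1.55, and those of Bcat2, Hibch and Got1 farthest left.

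Of the other genes of these pathways, with their carriers and regulators, 88 of 134 listed were tested. Of the 88, 1 rose, 1 fell and 86 did not pass (limma, adjusted p under 0.05). Over all named genes 0.12% rose and 0.446% fell. The median difference of the 88 was 0.12, against 0.0037 over all named genes. A difference above 0 was found for 53 (60.2%), against 51.1% of all named genes. Car5a, the mitochondrial carbonic anhydrase that supplies bicarbonate to Cps1, had 8.73, 9.08 and 9.03 in the EGCG rats, against 8.29, 7.94 and 7.90 in the water rats. All 3 EGCG rats, EGCG_236 included, lay above the water rats, and it rose by 0.90 (SE 0.16, limma adjusted p = 0.0412). Leaving out EGCG_228 ended the call (adjusted p = 0.0716), as did leaving out EGCG_234 (0.204), water_227 (0.155) or water_237 (0.129). Phgdh, which begins serine synthesis from a glycolytic intermediate, had 6.71, 6.82 and 6.75 in the EGCG rats, against 7.34, 7.30 and 7.49 in the water rats, and fell by 0.62 (SE 0.11, limma adjusted p = 0.0429). Its groups lay apart, and fits on 5 rats did not call it, whichever rat was missing (adjusted p between 0.0507 and 0.171).

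In the urea cycle partners, Gls2, the liver glutaminase, differed by 0.48 (SE 0.21, limma adjusted p = 0.484). Tat, tyrosine aminotransferase, which feeds Hpd and is induced by glucocorticoids, had 10.75, 10.64 and 10.75 in the EGCG rats, against 12.86, 11.43 and 11.36 in the water rats. It was lower in every EGCG rat, while the tyrosine genes after it lay above 0, with a difference of -1.17 (SE 0.33, limma adjusted p = 0.203). That difference was -0.69 without water_224. Gchfr, a regulator of biopterin synthesis, differed by 0.38 (SE 0.16, limma adjusted p = 0.449).

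Among the other branched-chain genes 11 of 13 (84.6%) had a difference above 0, against 51.1% of all named genes, and none passed. Auh, the hydratase after Mccc1, had 10.48, 10.49 and 10.43 in the EGCG rats, against 10.03, 10.14 and 10.07 in the water rats, a difference of 0.38 (SE 0.14, limma adjusted p = 0.371). Its 3 EGCG rats were almost equal and above the water rats. Acadm, the medium-chain acyl-CoA dehydrogenase, differed by 0.55 (SE 0.20, limma adjusted p = 0.348), and it passed without EGCG_236 (0.75, limma adjusted p = 0.0377). In that fit 4 of all the other pathway genes passed, Acadm, Car5a, Gamt and Mpst, where 1.76% of all named genes did. In the glycine and methionine list, Grhpr, which reduces glyoxylate, differed by 0.58 (SE 0.16, limma adjusted p = 0.202), with every EGCG rat higher.

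Of the regulators and carriers, none passed with all rats. Foxa2, a forkhead factor of hepatocytes, had 9.19, 9.74 and 9.05 in the EGCG rats, against 8.93, 8.15 and 8.15 in the water rats. Its groups lay apart, with a difference of 0.92 (SE 0.24, limma adjusted p = 0.165). Over left-out rats that difference ran from 0.71 to 1.18. It passed only in the fit without water_224 (1.18, limma adjusted p = 0.0453). Foxa1 differed by 0.38 (SE 0.12, limma adjusted p = 0.253). Slc25a10, the mitochondrial dicarboxylate carrier, differed by 0.57 (SE 0.16, limma adjusted p = 0.208) and Slc3a1, a subunit of a cystine carrier, by 0.35 (SE 0.11, limma adjusted p = 0.274).

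Lists of markers of other cell types, stellate cells, bile duct, endothelium, macrophages and red cells, had lower medians in all 3 EGCG rats than in the 3 water rats. The stellate and fibroblast list was lower in all 3 EGCG rats (medians relative to the water mean -0.82, -0.77 and -0.65 in EGCG_228, EGCG_234 and EGCG_236, against 0.026, -0.25 and 0.19 in water_224, water_227 and water_237). Its summed intensity ran from 4588 to 5772 in EGCG livers and from 8154 to 10102 in water livers, and 2 of 8 tested genes fell, Vim and Dcn. Over all named genes 0.446% fell. The bile duct list summed to 2734 to 4338 in EGCG livers and 5370 to 6989 in water livers, with 0 of 6 past the threshold. The 5 endothelial markers with a probe summed to 1967 to 2128 in EGCG livers and 2546 to 3004 in water livers (1 of the 4 tested fell, Vwf). Macrophage markers summed to 8762 to 11172 in EGCG livers and 11037 to 15424 in water livers (0 of 8 passed). Not every marker was lower. In the macrophage list 6 of 8 differences were below 0, but Marco was higher in every EGCG rat (1.03, SE 0.25, limma adjusted p = 0.131). Cd163 differed by 0.040, and the endothelial marker Lyve1 by 0.021. The macrophage medians were -0.37, -0.17 and -0.44 in EGCG_228, EGCG_234 and EGCG_236, against 0.27, -0.14 and -0.13 in the water rats, so that EGCG_236 was the lowest rat there too; the part of these cells in the amino acid values was not tested. Red cell genes summed to 13080 to 25713 in EGCG livers and 50869 to 74037 in water livers (3 of 5 fell, the hemoglobins Hba-a1, Hbb and Hbb-b1). Bcat2, Got1, Hibch, Phgdh and Tat were lower in the same livers, and the part of these cells in that was not tested.

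The hepatocyte list did not differ in this way: its 12 genes with a probe summed to 196180 to 222354 in EGCG livers and 204936 to 226026 in water livers. The 11 tested had a median difference of 0.015 and 0 past the threshold. The sums rest on the brightest markers, which quantile normalization holds to shared top values (Alb 15.32 in both EGCG_236 and water_237). They cannot show that hepatocyte signal was unchanged. Single markers went both ways: Ttr 0.53, Rbp4 0.55 and Asgr1 0.36, against Fgb -0.48 and Tat -1.17. Periportal genes other than the enzymes described first, 7 tested, had medians of 0.25, 0.32 and -0.21 in EGCG_228, EGCG_234 and EGCG_236. The water rats had 0.18, -0.043 and -0.20, and EGCG_236 was again the lowest of the EGCG rats. Sds, Gls2 and Slc7a2 of this list were also counted among the other pathway genes above, so the list partly repeats them. Pericentral genes, 9 tested, had medians of 0.17, 0.51 and 0.096 in the EGCG rats, against 0.053, 0.036 and -0.13 in the water rats. Oat and Slc1a2 of the pericentral list were likewise among the other pathway genes. In the pericentral list 1 gene rose, Lect2 (limma adjusted p = 0.047). Over all named genes 0.12% rose. Pancreas markers (3 tested) and kidney and gut markers (4 tested) had 0 past the threshold. The pancreas sums were 593 to 680 in EGCG livers and 818 to 1231 in water livers. These sums include Cela2a, Prss1 and Pnlip, which were too dim to be tested. No probe can be called absent, since the tables hold no detection p-values.

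**Figure D5:**
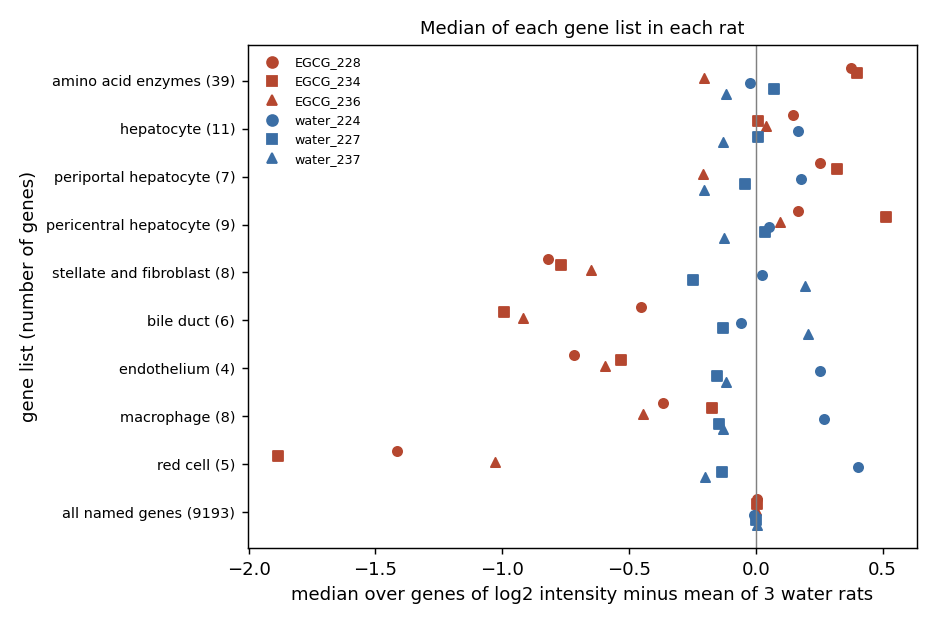
Median over the genes of each list of the log2 normalized intensity minus the mean of the 3 water rats, for each rat (red EGCG, blue water; marker shapes are rats; number of genes in parentheses). For the amino acid enzymes EGCG_236 is the lowest rat and EGCG_228 and EGCG_234 the highest, whereas for stellate, bile duct, endothelial, macrophage and red cell genes all 3 EGCG rats lie below the 3 water rats.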

How the data were processed

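The authors deposited a table of non-normalized bead intensities and a table of intensities they had normalized by a method not given in the sources used here, both linear, for 22523 probes. Per the file headers, each column is 1 rat. The sources used here give neither the scanner software nor detection p-values. The non-normalized intensities were corrected for background with normexp (offset 50), made equal in distribution by quantile normalization and log2 transformed. Probes with a mean below the 40th percentile (6.39) were left out, which kept 13514. Names came from the platform annotation, and the brightest probe stood for a gene. EGCG was compared with water in limma 3.58.1 (R 4.3.3; lmFit, eBayes with an intensity trend, two-sided, 6 arrays, no covariates). The rat numbers differ between groups, so no rats are paired. The number of arrays limits precision: an exact permutation test of 3 against 3 cannot give a two-sided p below 0.1. The scripts were tested on simulated data. The members and lists were chosen with earlier results of these data known, so their patterns are no independent support. Rat by rat values are given for the cycle's 6 enzymes and, in each other group, for the up to 3 genes with the smallest unadjusted p. From each of the other lists, genes that passed and the 2 with the smallest unadjusted p are named, some without rat by rat values. A few further values were added after they were seen. No slide or scan date was used, so a batch that follows the groups cannot be told apart from them.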

Additional observations from a re-analysis of the deposited data

How the results depend on the processing

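Over 11 other settings, 424 differences of the 39 genes kept their direction and their side of the threshold and 5 near 0 changed sign: Gldc (0.0087 with a normexp offset of 16, 0.0092 with array weights), Cps1 (-0.0032 with median scaling), and Asl (0.045) and Arg1 (-0.026) with array weights. The genes called over the whole array numbered 52, but 34 without the intensity trend, 141 with array weights and 8 to 162 when 1 rat was left out. Members called numbered 0 under every setting except without EGCG_236 (0 to 4 over left-out rats). Members without overlap numbered 7, but 5 with cyclic loess (16.3% of all named genes), 1 with median scaling (12.2% of all named genes) and 7 to 26 over left-out rats (22.3% to 34.2% of all named genes). Got1 and Ivd overlapped with cyclic loess. Other pathway genes called numbered 2, but 1 with median scaling, cyclic loess or the 60th percentile filter, 0 without the trend and 0 to 4 over left-out rats. Car5a lost its call with median scaling (adjusted p = 0.179), cyclic loess (0.051), the 60th percentile filter (0.0527) and no trend (0.0511), and Phgdh with no trend (0.059), all in limma. The median difference ran from 0.10 to 0.38 over left-out rats. EGCG_236 was the lowest EGCG rat for 35 genes under the other settings, and for 36 of 40 without the filter; that count was chosen after seeing the data. Over left-out rats the sign changed for Cps1 (-0.19 to 0.22), Ass1 (-0.095 to 0.22), Got2 (-0.12 to 0.20), Mccc1 (-0.090 to 0.29), Shmt2 (-0.029 to 0.21), Ahcy (-0.10 to 0.15), Amdhd1 (-0.17 to 0.46), Gldc (-0.21 to 0.31), Asl (-0.19 to 0.31), Mat1a (-0.24 to 0.14), Bhmt (-0.41 to 0.0056), Arg1 (-0.076 to 0.26) and Tdo2 (-0.48 to 0.092). The cause was not tested. No paired analysis was possible because the rat numbers differ between the groups. The labels do not say more of the rats' source than that each array is 1 rat.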
